A study of Mus musculus with 12 samples.

Results

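The 39 genes described here encode plasma proteins of blood clotting and of complement that the liver secretes. The members were chosen by name from what their proteins do, with earlier results of these data known. They are 21 genes for coagulation, kinins and fibrinolysis and 18 for complement, out of 24062 genes in the count tables. All 39 passed the filter on low counts that left 12481 genes to test. The study fed mice BIBB-515, an inhibitor of lanosterol synthase, the enzyme of cholesterol synthesis that Lss encodes, and sequenced RNA of whole liver. Coagulation and complement members are read separately throughout.

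Both groups were female C57BL/6J mice with no engineered allele named in the labels. They arrived at 6 weeks of age, had 2 weeks to settle, and all ate the purified control diet for the last 3 days before the experiment. The control group (6 mice sequenced) then stayed on this diet, and the BIBB-515 group (6 mice sequenced) received the matched diet with the drug at 55 mg/kg of body weight, for 10 days. Per its methods the study randomized 11 mice to each diet. Its reporting summary gives this number as what was left after a mouse was dropped from each group. The mice shared cages, and the labels do not say which mouse lived in which cage. An effect of the cage therefore cannot be told apart from that of the single mouse. Where cage mates ate the same food, it cannot be told apart from that of the diet either. The tests count each mouse as its own sample and take no account of cages.

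Clotting runs through a cascade of serine proteases, most of them made by hepatocytes as inactive precursors. The contact factors (F12, plasma prekallikrein, F11 and kininogen) and the vitamin K-dependent factors lead to thrombin, which cuts fibrinogen into fibrin, and plasminogen later dissolves the clot. Complement is a related protease cascade: the classical and lectin pathways and the alternative pathway meet at C3, and the terminal components assemble the pore that is named the membrane attack complex.

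Values are counts scaled to library size (CPM) and corrected for library composition by the trimmed mean of M-values (TMM). A change is the log2 fold change of BIBB-515 over control with its standard error (SE) from the quasi-likelihood test of edgeR, and the false discovery rate (FDR) is adjusted over all 12481 tested genes. Between 22764819 and 31058370 reads were counted per mouse, and the least-counted member in any mouse was C6 with 403 reads. Whole liver holds several cell types, and in such bulk RNA fewer cells of a type and less RNA per cell cannot be told apart.

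Of the 21 coagulation members, 5 fell (F7, F9, F11, Fgb and Vtn), 1 rose (Hrg) and 15 did not pass an FDR of 0.05. The share that fell was 23.8%, where 6.48% of all tested genes fell and 7.18% rose. Of the 18 complement members, 5 fell (C9, C4bp, Cfi, Hc and C1s1), 1 rose (C2) and 12 did not pass. This share of 27.8% lower stood beside the same background, and among the 4050 tested genes whose average log2 CPM was 5 or more, where most members lie, 8.32% fell and 10.7% rose. Since the members were chosen with earlier results of these data known, the shares describe these lists only. Whether these shares differ from those of other secreted liver proteins was not tested.

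**Figure D1:**
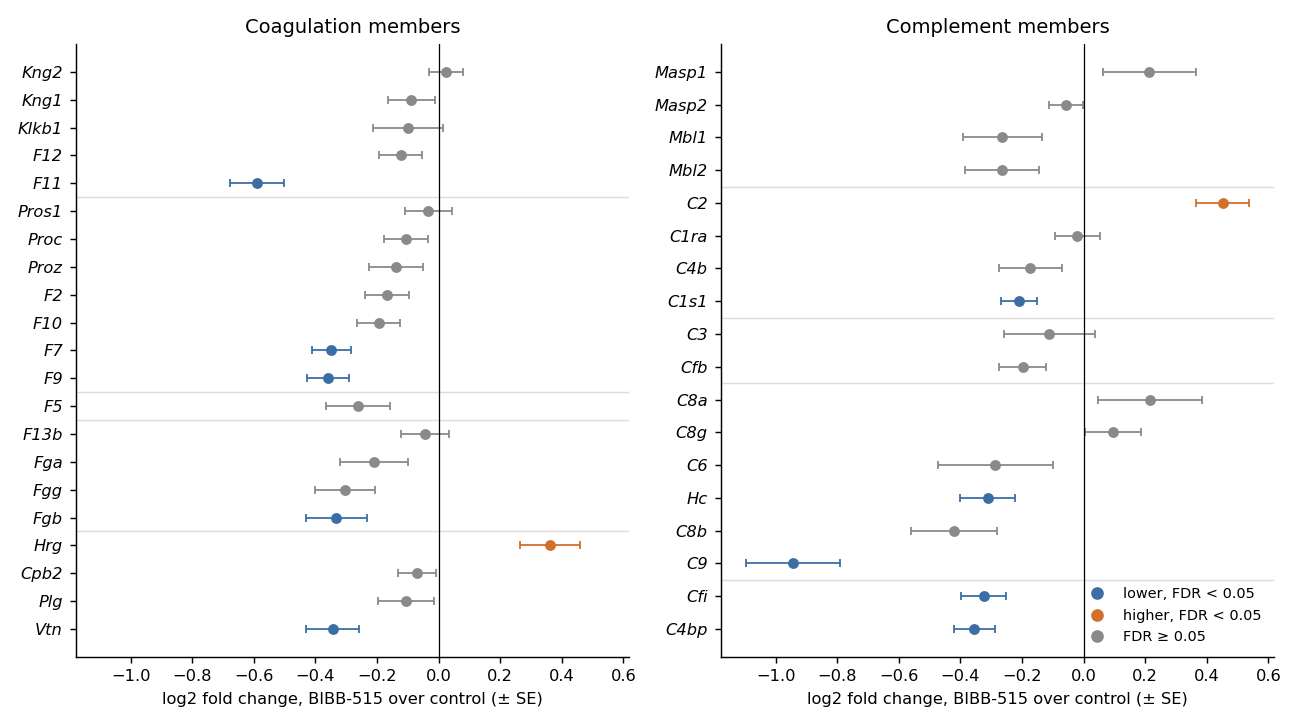
Log2 fold change (x axis) of each coagulation member (left) and complement member (right), BIBB-515 over control, with SE bars, grouped by role from top to bottom as in the text. Blue points fell and orange points rose at an FDR below 0.05, and C9 (-0.94) and C2 (0.45) lie farthest apart.

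The fold changes lay to the lower side beyond the members that passed. Of the coagulation members 19 of 21 had a log2 fold change below 0, with a median of -0.14, and of the complement members 14 of 18 did, with a median of -0.20. Over all tested genes the median was -0.01 and 52.9% were below 0. With library totals as the only scaling, the coagulation median was -0.082 and the complement median -0.15, F13b, Pros1 and C1ra moved to the upper side of 0, and the median of all genes was 0.04.

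Sequences upstream of some of these genes are shown first, to set the genes that moved beside each other at the level of DNA. RefSeq windows of 300 bases, 250 before the start site and 50 from it, were matched for 31 of the 39 members. Plg, Proc, Kng1, C2, C4b, Cfb, Cfi and Masp1 were not matched. The 4 windows printed are those of the complement and the coagulation member that fell most (C9 and F11), of the coagulation member that rose (Hrg), and of fibrinogen beta (Fgb). They are given 5′ to 3′ on the strand of the gene, in GRCm38.p6, the build that the mm10 tables use, at chr15:6445096-6445395 (plus strand), chr8:45261982-45262281 (minus), chr16:22950822-22951121 (plus) and chr3:83049814-83050113 (minus). Capitals mark the letters of TTGCNNAA (C/EBP), TTCNNNGAA (STAT) and TGTTTACT (FOXA) on either strand.
C9: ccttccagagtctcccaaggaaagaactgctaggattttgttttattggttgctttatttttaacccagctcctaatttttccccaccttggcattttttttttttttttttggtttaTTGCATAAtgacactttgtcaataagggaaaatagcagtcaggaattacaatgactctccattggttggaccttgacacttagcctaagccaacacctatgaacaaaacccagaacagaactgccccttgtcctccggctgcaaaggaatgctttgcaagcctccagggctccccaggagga
F11: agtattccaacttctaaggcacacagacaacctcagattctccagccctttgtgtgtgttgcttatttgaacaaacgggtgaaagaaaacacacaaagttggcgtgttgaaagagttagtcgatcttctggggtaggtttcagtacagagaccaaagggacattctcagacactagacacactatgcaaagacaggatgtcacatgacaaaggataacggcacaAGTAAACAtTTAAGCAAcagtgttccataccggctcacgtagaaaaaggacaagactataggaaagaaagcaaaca
Hrg: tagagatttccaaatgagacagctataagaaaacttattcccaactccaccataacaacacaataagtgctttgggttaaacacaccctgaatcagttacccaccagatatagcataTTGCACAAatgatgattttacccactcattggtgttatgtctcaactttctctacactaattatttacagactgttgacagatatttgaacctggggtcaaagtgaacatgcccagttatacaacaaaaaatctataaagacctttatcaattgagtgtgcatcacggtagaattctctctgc
Fgb: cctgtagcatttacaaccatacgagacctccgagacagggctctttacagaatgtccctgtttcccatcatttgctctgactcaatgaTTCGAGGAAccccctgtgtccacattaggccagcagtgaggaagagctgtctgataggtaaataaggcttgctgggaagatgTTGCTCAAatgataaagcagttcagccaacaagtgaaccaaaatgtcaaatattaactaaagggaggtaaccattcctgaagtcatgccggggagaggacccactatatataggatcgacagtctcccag

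The start site of the window was the gene's start in the count tables for F11 and Hrg, and lay 13 bases from it for C9 and 73 bases from it for Fgb. The C/EBP letters began at -132 from the start site in C9 and at -133 in Hrg, 1 gene that fell and 1 that rose. They were in the windows of 8 of 18 coagulation and 4 of 13 complement members and in 12.2% of all 27025 genes with windows. The STAT letters were in 5 of 18 and 3 of 13 members (9.55% of genes), and the FOXA letters in 1 of 18 and 0 of 13 (1.23%). The HNF4 letters CAAAGTCCA were in none of either list (0.555%), and the looser CAAAGNNCA in 4 of 18 and 2 of 13 (7.27%). A match is a description of the letters and not of a bound site.

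The contact factors start clotting on negatively charged surfaces. Of these 5 members 1 passed the test, F11. F11 encodes the protease precursor that activates factor IX; its level was 81.2 CPM in the lowest control mouse, 98.2 at the median and 112 in the highest, and 55.3, 65.0 and 71.8 in the BIBB-515 mice. Every BIBB-515 mouse lay below every control mouse. The log2 fold change of F11 was -0.59 with an SE of 0.09 (edgeR FDR = 0.000615), a fall of 33.5%. The other contact members did not pass the test: F12, the surface-activated factor, had -0.12, Klkb1 (plasma prekallikrein) -0.10, Kng1, which carries bradykinin, -0.09 and its paralog Kng2 0.02, with FDRs between 0.246 and 0.813.

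The vitamin K-dependent factors need gamma-carboxylation to bind membranes. All 7 had a log2 fold change below 0, and F7 and F9 passed the test. F7, which tissue factor binds to start clotting, was at 129, 143 and 154 CPM (lowest, median and highest) in control mice and at 101, 111 and 122 in BIBB-515 mice. The groups of F7 did not overlap, and its log2 fold change was -0.35 with an SE of 0.06 (edgeR FDR = 0.00264). F9, the X-linked gene of the hemophilia B factor, was at 196, 210.5 and 246 CPM in control mice and at 152, 171 and 180.3 with BIBB-515. Here too all BIBB-515 mice were below all control mice, with a log2 fold change of -0.36, an SE of 0.07 and an edgeR FDR of 0.00331.

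The other vitamin K-dependent members had smaller values. F10, the protease that cuts prothrombin, had a log2 fold change of -0.19 (edgeR FDR = 0.0721), with 4 of 6 BIBB-515 mice below every control mouse. F2, which encodes prothrombin, had -0.17, and Proz, a cofactor in the inhibition of factor Xa, had -0.14. The genes of the anticoagulant protein C (Proc) and its cofactor protein S (Pros1) had -0.11 and -0.03. F5, the cofactor of factor Xa, had -0.26 with an SE of 0.10 (edgeR FDR = 0.108), and its BIBB-515 mice mostly lay inside the control range.

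Fibrinogen is built from 3 chains whose genes lie side by side on chromosome 3. Fgb, the beta chain, was at 4072, 4518 and 5759.6 CPM in control mice and at 3353, 3755 and 4100.4 with BIBB-515. The groups of Fgb overlapped in 1 BIBB-515 mouse, and the log2 fold change was -0.33 with an SE of 0.10 (edgeR FDR = 0.0376). Fgg, the gamma chain, was at 2844, 3123 and 4035 CPM in control mice and at 2343, 2698 and 2952 with BIBB-515. Again 5 of 6 BIBB-515 mice were below every control mouse, but the log2 fold change of -0.30 with an SE of 0.10 did not pass (edgeR FDR = 0.0509). It passed without control mouse 2 (FDR = 0.0307) or mouse 3 (FDR = 0.0444) and in 4 of 9 other fits, among them DESeq2 and limma-voom.

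Fga, the alpha chain, had a log2 fold change of -0.21 (SE 0.11) and an edgeR FDR of 0.223. The call on Fgb rested on single mice: it passed when control mouse 2, 3 or 4 was left out and not when any of the other 9 was, with FDRs between 0.0222 and 0.0833. F13b, the carrier subunit of the fibrin cross-linking factor XIII, had a log2 fold change of -0.04.

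Plg, Cpb2, Vtn and Hrg act on the clot and the vessel matrix. Vtn encodes vitronectin, an adhesion protein of plasma and matrix. It was at 2094, 2404 and 2932 CPM in control mice and at 1731, 1999 and 2029.9 with BIBB-515, with no overlap, a log2 fold change of -0.34, an SE of 0.09 and an edgeR FDR of 0.0171. Hrg, which encodes histidine-rich glycoprotein, a binder of heparin, plasminogen and fibrinogen, was at 561, 709 and 795 CPM in control mice and at 801, 852 and 1009 with BIBB-515.

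For Hrg every BIBB-515 mouse was above every control mouse. Its log2 fold change was 0.36 with an SE of 0.10 (edgeR FDR = 0.0231), a rise of 28.5%. Without BIBB-515 mouse 8 or mouse 10 the FDR of Hrg was 0.0559 and 0.0556. Plg, the gene of plasminogen, had -0.11, and Cpb2, which encodes a carboxypeptidase that slows fibrinolysis, had -0.07. Over all coagulation members the groups did not overlap for 4 genes on the lower side and 1 on the upper, where every BIBB-515 mouse was below every control mouse for 2.72% of all tested genes and above for 4.35%.

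**Figure D2:**
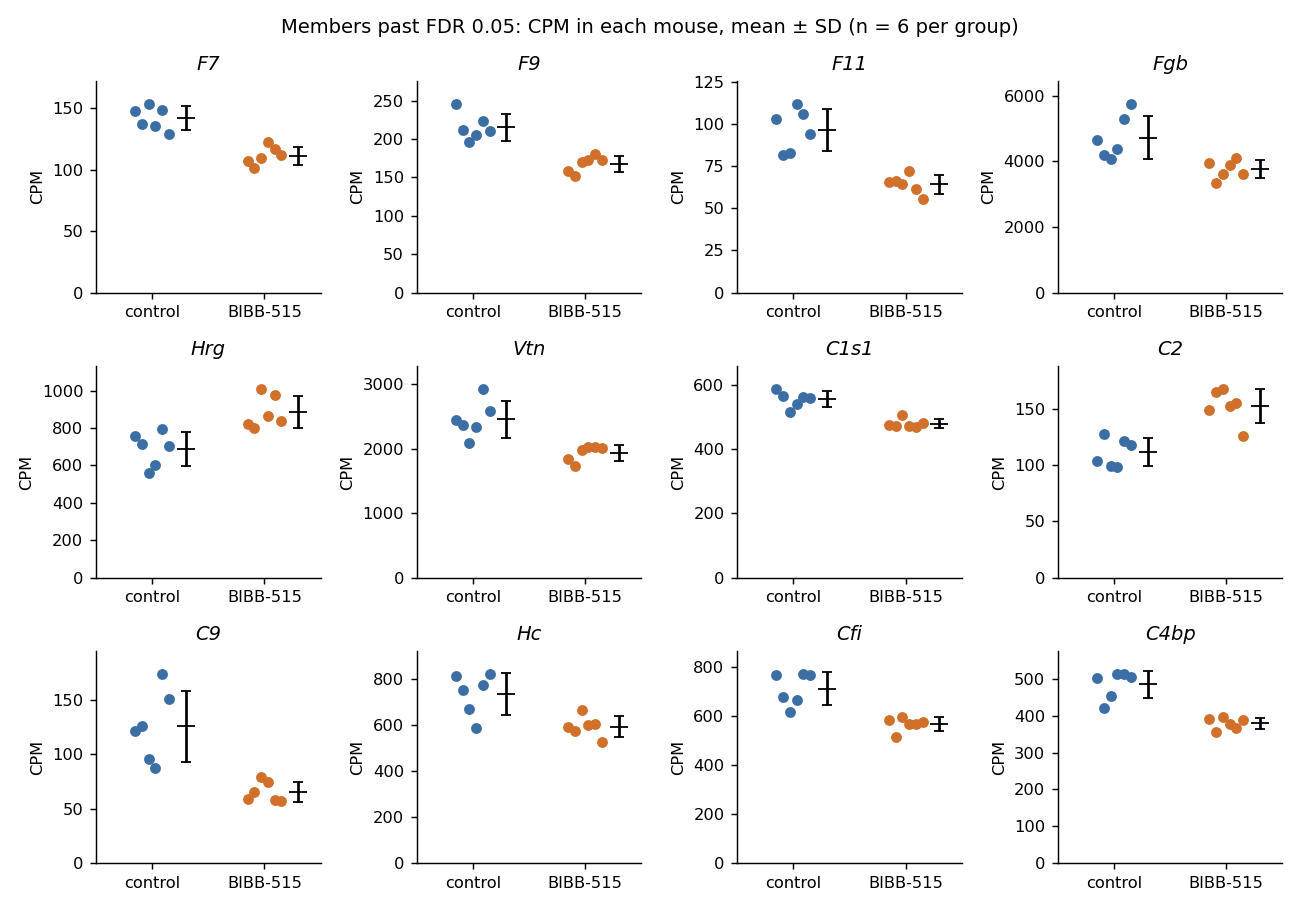
CPM (y axis, from 0) of the 12 members past an FDR of 0.05 in each mouse, with control mice in blue, BIBB-515 mice in orange and the mean ± SD of 6 mice in black. In F11 and C9 the BIBB-515 mice sit below all control mice (at most 71.8 against at least 81.2 CPM, and at most 79.0 against at least 87.4), and in Hrg above them.

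Complement can start from the lectin pathway, in which mannose-binding lectins recognize sugars and bring the proteases MASP-1 and MASP-2. None of its 4 members passed in the edgeR fit, with DESeq2 or with limma-voom, and 1 had an unadjusted p under 0.05. Mbl2 was at 401, 533 and 716 CPM in control mice and at 411, 454 and 518 with BIBB-515, a log2 fold change of -0.27 with an SE of 0.12 (edgeR FDR = 0.154). Mbl1 was at 104, 142 and 175 CPM in control mice and at 109, 113 and 131 with BIBB-515, a log2 fold change of -0.26 with an SE of 0.13 (edgeR FDR = 0.181). Without control mouse 3 the FDR of Mbl2 was 0.0446. Both lectin genes lay inside the control range in every BIBB-515 mouse. Masp1 had 0.21 and Masp2 -0.06. Exons of Masp2 overlap those of its neighbor Tardbp, and Masp2 had 1.75 times as many reads where reads on overlapping genes were counted for each gene.

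In the classical pathway C1r and C1s are the proteases of the first component, and C2 and C4 form the C3 convertase. C2 was at 98.5, 111 and 128 CPM in control mice and at 126, 154 and 168 with BIBB-515. In C2, 5 of 6 BIBB-515 mice were above every control mouse, with a log2 fold change of 0.45, an SE of 0.09 and an edgeR FDR of 0.00344, a rise of 36.8%. C1s1 was at 514, 560.1 and 587 CPM in control mice and at 467, 473 and 507 with BIBB-515. It fell without overlap by 0.21 on the log2 scale with an SE of 0.06 (edgeR FDR = 0.0269), and the call was lost when control mouse 1 or 6 or BIBB-515 mouse 6, 7, 9 or 10 was left out, with FDRs up to 0.0669.

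C1ra (-0.02) and C4b (-0.17) did not pass. Some of these counts are uncertain, since reads that map to several genes were dropped: 50.8% of the 50-base words in C1ra transcripts, 35.1% in C1s1 and 34.6% in C4b also occur in another gene, chiefly C1rb, C1s2 and C4a. The median control level was 0.0395 CPM for C1rb, 0.0814 for C1s2 and 10.8 for C4a. In the alternative tables of primary alignments C1ra, C1s1 and C4b had 1.0005, 1.0003 and 1.0007 times as many reads. How far those tables restore the dropped reads was not tested.

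C3, on which all pathways act, had the highest complement level per length and did not pass the test. It was at 5101, 7967 and 9495 CPM in control mice and at 5636, 6753 and 8489.8 with BIBB-515, and the log2 fold change was -0.11 with an SE of 0.15 (edgeR FDR = 0.662). The control mice spread widely, with a coefficient of variation of 22.2%. Cfb, factor B, the protease of the alternative pathway and a paralog of C2, had -0.20 with an SE of 0.08 (edgeR FDR = 0.0986).

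The terminal components C5 (gene Hc), C6, C8 and C9 build the pore. C9, the subunit that polymerizes into the ring, had the lowest fold change of all members. Its level was 87.4, 124 and 174 CPM in control mice and 56.8, 62.1 and 79.0 with BIBB-515. No BIBB-515 mouse reached the lowest control mouse, and the log2 fold change was -0.94 with an SE of 0.15 (edgeR FDR = 0.00112), a fall of 48.0%. Leaving out any single mouse gave a log2 fold change of C9 between -1.02 and -0.82, with FDRs of at most 0.00411.

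Hc was at 589, 765 and 823 CPM in control mice and at 526, 596 and 667 with BIBB-515. The groups of Hc overlapped, with 2 of 6 BIBB-515 mice below every control mouse, a log2 fold change of -0.31, an SE of 0.09 and an edgeR FDR of 0.0332. That call was kept when control mouse 2, 3 or 4 or BIBB-515 mouse 8 was left out and lost when any of the other 8 was, with FDRs up to 0.0743.

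C8b, the beta subunit of C8, was at 83.9, 125 and 161 CPM in control mice and at 80.9, 94.1 and 109 with BIBB-515. Its log2 fold change was -0.42 with an SE of 0.14 (edgeR FDR = 0.0597), and it passed when control mouse 2 (FDR = 0.0485) or 3 (FDR = 0.00879) was left out. C8b also passed in 1 of 9 other fits, that with DESeq2 (FDR = 0.0277). C6, which adds to the growing complex after C5b, was at 19.4, 27.5 and 35.8 CPM in control mice and at 14.8, 23.5 and 31.3 with BIBB-515, with -0.29, an SE of 0.19 and an edgeR FDR of 0.328. The mice overlapped broadly in C6. C8a, the alpha subunit, had a log2 fold change of 0.22 and C8g, the gamma subunit, had 0.10, with edgeR FDRs of 0.429 and 0.516.

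Both regulators among the members fell. Cfi encodes factor I, the protease that inactivates C3b and C4b, and C4bp encodes the binding protein that serves as its cofactor on C4b. Cfi was at 613, 722 and 770.4 CPM in control mice and at 515, 570.4 and 595 with BIBB-515, with a log2 fold change of -0.33, an SE of 0.07 and an edgeR FDR of 0.0105. C4bp was at 422, 504 and 514 CPM in control mice and at 357, 383 and 395 with BIBB-515, with a log2 fold change of -0.36, an SE of 0.07 and an edgeR FDR of 0.00327. Neither gene overlapped between the groups, and both passed when any single mouse was left out. Over all complement members the groups did not overlap for 4 genes on the lower side and 0 on the upper. Of all tested genes, 2.72% had every BIBB-515 mouse below every control mouse and 4.35% had every one above.

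Many members are neighbors in the genome, and within a mouse the ratio of the counts of neighbors does not depend on library scaling. All 10 pairs of adjacent members less than 100 kb apart were compared by a two-sided exact permutation test that assigned the 12 mice to the diets in every possible way, with p-values adjusted over the 10 pairs. These pairs were chosen after the members' values had been seen. The adjusted p was below 0.05 for 5 of the 10: Cfb/C2, C8b/C8a, Hrg/Kng2, F11/Klkb1 and C1ra/C1s1. C2, Hrg, F11 and C1s1 had passed singly in the same mice, so the ratios of their pairs partly restate those calls and are not separate evidence.

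Cfb and C2 lie 87 bases apart on chromosome 17 (mm10, 34856374 to 34862514 and 34862602 to 34882100, minus strand). The log2 ratio of Cfb to C2 was 3.61 ± 0.10 (SD) in control mice and 2.96 ± 0.15 in BIBB-515 mice. The values ran from 3.43 to 3.71 and from 2.72 to 3.20, so the groups did not overlap (difference -0.65, exact permutation p = 0.00216, the smallest that 6 mice against 6 allow, adjusted p = 0.00722). In GENCODE 73.0% of the 50-base words of Cfb and 41.5% of those of C2 also belong to Gm20547 or another gene; Gm20547 is annotated across the same 2 loci and is not a gene of the count tables. Thus 2 paralogous neighbors moved apart, one up and the other without a call of its own in the edgeR fit. With DESeq2, 1 of the 2 members C3 and Cfb passed.

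C8b and C8a lie tail to tail on chromosome 4 (mm10, 104766317 to 104804548 and 104815680 to 104876398) with 11131 bases between them. Neither passed the test alone, and each varied widely among control mice, with a coefficient of variation of 24.5% for both. Their log2 ratio was narrow within the groups, at -0.59 ± 0.09 (SD) in control mice and -1.21 ± 0.16 in BIBB-515 mice. The ratio ran from -0.69 to -0.46 and from -1.48 to -1.02, again without overlap (difference -0.62, exact permutation p = 0.00216, adjusted p = 0.00722). The ratio of these C8 subunit transcripts thus shifted by more than its spread within either diet.

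F11 and Klkb1 are paralogs 7419 bases apart on chromosome 8. Their log2 ratio was -0.73 ± 0.33 (SD) in control mice and -1.23 ± 0.14 with BIBB-515 (difference -0.50, exact permutation p = 0.00433, adjusted p = 0.0108), and 1 control mouse stood well above the others. Of the words of Klkb1, 42.7% also belong to another gene, chiefly Gm45753, which GENCODE places over the same locus and which is not in the count tables. Hrg against Kng2 on chromosome 16 differed by 0.34 (adjusted exact permutation p = 0.00722), and C1ra against C1s1 on chromosome 6 by 0.19 (adjusted exact permutation p = 0.0216).

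The other 5 pairs were Kng2/Kng1, Fgg/Fga, Fga/Fgb, F7/F10 and F10/Proz. Their differences lay between -0.16 and 0.13, with adjusted exact permutation p-values between 0.0557 and 0.649, so unequal change of the fibrinogen chains or of F7 and F10 was not shown.

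**Figure D3:**
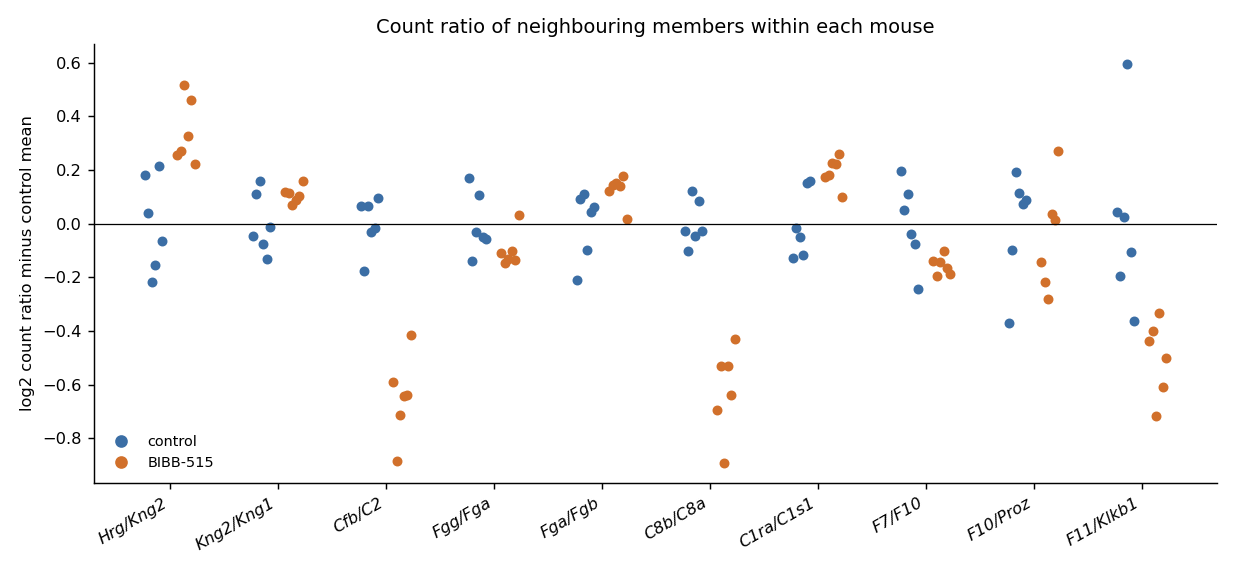
Log2 ratio of the counts of each pair of neighboring members within each mouse (y axis), minus the mean of the control mice, with control mice in blue and BIBB-515 mice in orange. For Cfb/C2 and C8b/C8a all BIBB-515 mice lie below all control mice, with mean differences of -0.65 and -0.62.

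The exon tables show whether a change ran along the whole transcript. Exon intervals with at least 50 counts in every mouse were used, and they are not independent, because a read over a junction counts for each exon it touches and intervals can overlap. All 11 intervals of C9 were lower with BIBB-515 (log2 ratios of group means from -1.01 to -0.80), as were all 13 of F11 (-0.71 to -0.47). All 17 intervals of C2 were higher (0.35 to 0.58), and all 7 of Hrg (0.33 to 0.47).

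C8b and C8a kept their opposite sides along the gene. The 12 intervals of C8b ran from -0.55 to -0.24 and the 10 of C8a from 0.12 to 0.64, and in both genes the ratios were lowest toward the 3′ end. This was not particular to these genes. From the first to the last interval the ratio went from -0.06 to -0.27 in F2 and from 0.14 to -0.16 in C3. In Kng2 it went the other way, from -0.02 to 0.11. A sign of RNA quality was read from the same tables: the median share of read density on the 3′ side of 35 members was between 58.2% and 66.7% in control mice, highest in control mouse 4, and between 58.2% and 62.9% in BIBB-515 mice (exact permutation p = 0.571). Its part in the values of C8a, C8b or the other members was not tested.

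**Figure D4:**
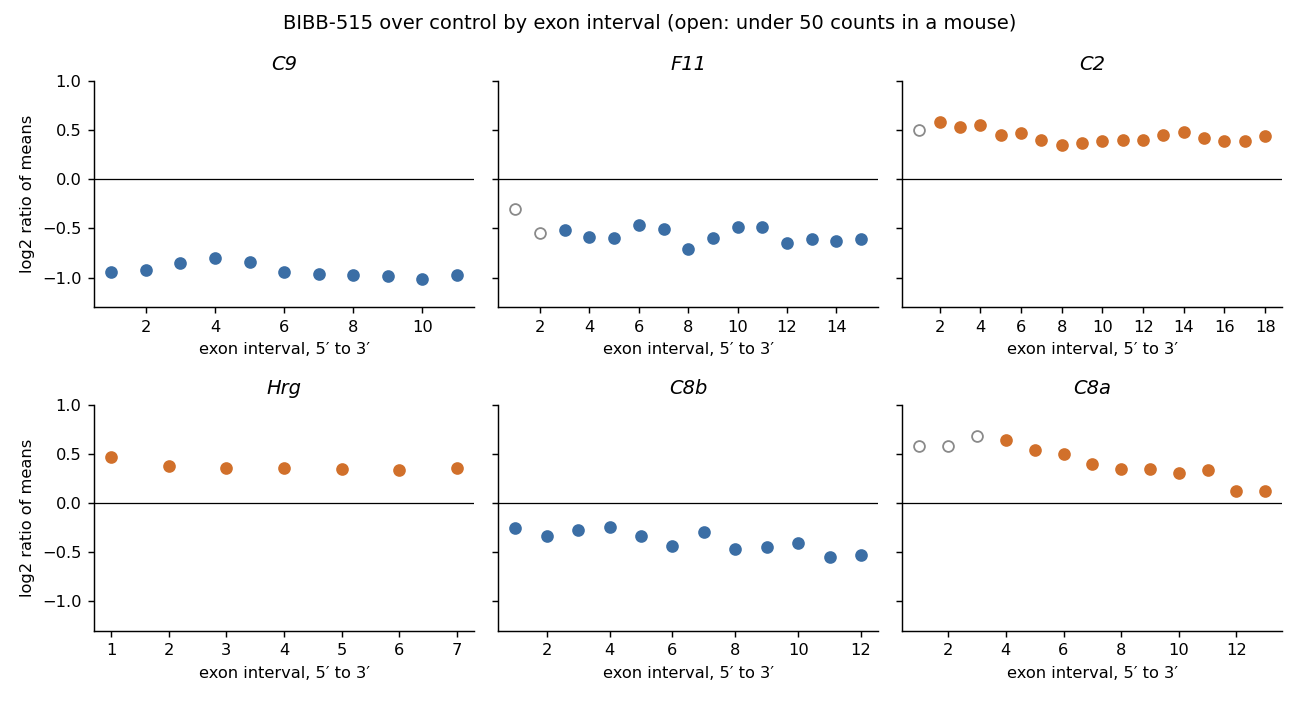
Log2 ratio of the mean CPM of BIBB-515 over control mice (y axis) for each annotated exon interval, numbered 5′ to 3′ (x axis), of 6 members. Filled points have at least 50 counts in every mouse, and they lie on 1 side of 0 in each gene: C9 from -1.01 to -0.80, C2 from 0.35 to 0.58.

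Kng1 gives 2 plasma proteins by its last exons. High-molecular-weight kininogen, the cofactor of the contact system, ends in one exon and the low-molecular-weight form in the next. An interval of the long form's exon (chromosome 16, mm10, 23079595 to 23080006) was set against the short form's last exon (23081478 to 23082078), a comparison chosen after the data were seen. The log2 count ratio of long to short was -1.41, -1.28 and -1.15 (lowest, median and highest) in control mice and -1.56, -1.51 and -1.45 in BIBB-515 mice.

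The 2 groups of ratios did not overlap, although Kng1 as a whole did not pass the test. The mean difference was -0.23 (exact permutation p = 0.00216, the smallest possible), and between -0.25 and -0.20 with any 1 mouse left out. Of the 50-base words in Kng1 transcripts 17.2% occur in another gene, chiefly Kng2, and whether that sharing differs between the exons was not tested.

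Levels between genes were compared per length, as CPM divided by the exon length in kilobases (RPKM). In control mice the coagulation members were led by Fgb (3003 ± 423 RPKM, SD, n = 6), Fgg (2168 ± 299), Vtn (1409 ± 161), Fga (1304 ± 220.5) and F2 (1063 ± 91.0), and ended with Klkb1 (65.5 ± 12.2), F11 (43.0 ± 5.58) and Pros1 (17.2 ± 1.84). The complement members were led by C3 (1479 ± 328), Mbl2 (514 ± 107) and Cfb (495 ± 48.0), and ended with C2 (42.2 ± 4.72), Masp1 (23.5 ± 5.62) and C6 (9.92 ± 2.43). Many neighbors in this order did not differ beyond their spread, such as Vtn and Fga, Mbl2 and Cfb, or F9, F5, F7 and F13b, which lay between 75.1 and 78.7 RPKM. Coagulation members that passed the test were found at both ends of this order, from Fgb to F11.

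**Figure D5:**
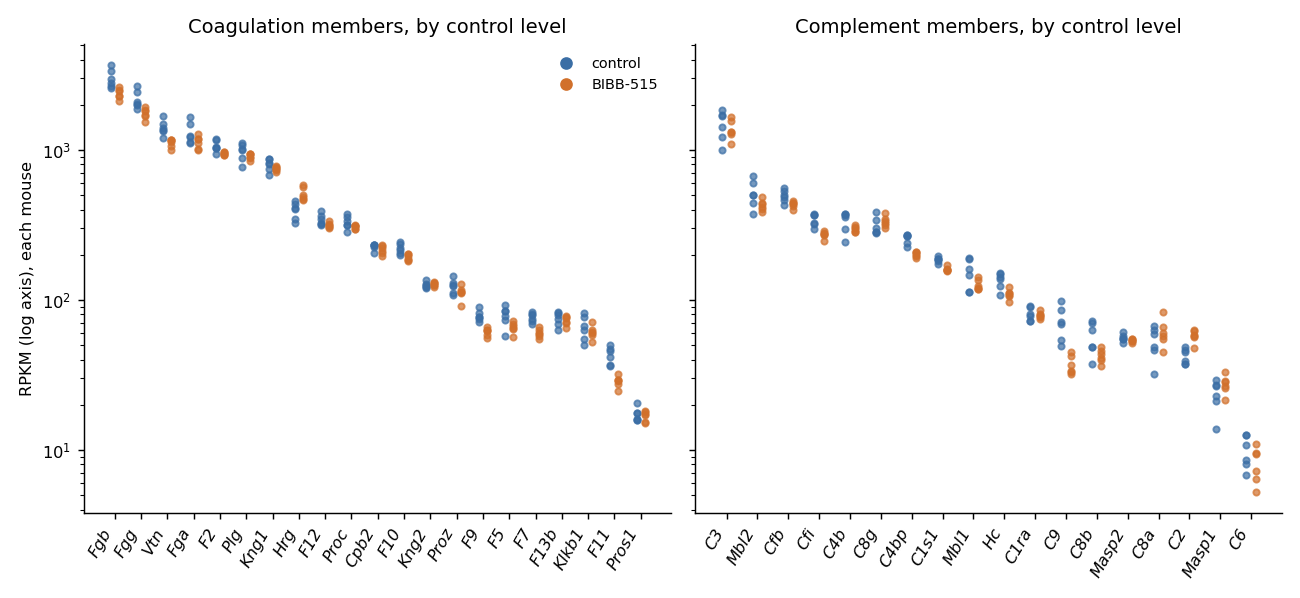
RPKM (y axis, log scale) of each member in each control mouse (blue) and BIBB-515 mouse (orange), ordered by the control mean within coagulation (left) and complement (right). Levels run from 3003 RPKM for Fgb to 9.92 for C6, and the spread of the groups overlaps for most genes.

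Control mice differed among themselves in a shared way. Control mouse 4 had the lowest value of the 6 for 15 members and control mouse 3 for 14, and control mouse 5 had the highest for 17 and control mouse 6 for 9. The gene counts of any pair of mice on 1 diet differed by more than sampling noise (chi-square divided by degrees of freedom 12.7 or more), and each mouse was counted as its own sample. Summed over members, coagulation took 2.42% to 2.97% of all counts in control mice and 2.23% to 2.56% in BIBB-515 mice, and complement had medians of 1.55% and 1.39%, with overlap in both.

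Other genes of the pathways were read from lists chosen by function, also with earlier results of these data known. Of 35 tested coagulation genes beyond the members 3 fell and 2 rose, with a median log2 fold change of -0.06. Among them the tyrosine sulfotransferase gene Tpst1 rose by 0.22 (edgeR FDR = 0.0235). Fgl1, a fibrinogen-like secreted protein, fell by 0.57 (FDR = 0.0156), Hgfac, a protease precursor related to F12, fell by 0.31 (FDR = 0.0140), and the sialyltransferase gene St3gal4 fell by 0.25 (FDR = 0.0130). Serpinc1, antithrombin, had -0.22 and did not pass (edgeR FDR = 0.0640). The carboxylation genes Ggcx (0.00) and Vkorc1 (-0.15) did not pass either.

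Of 31 tested complement genes beyond the members 8 fell and 0 rose in the edgeR fit (8 passed with DESeq2 and 8 with limma-voom, and 11 had an unadjusted p under 0.05), with a median log2 fold change of -0.12. Among them Serping1, the inhibitor of C1 and of the contact proteases, fell by 0.44 on the log2 scale (median 792 CPM in control mice and 582 with BIBB-515, edgeR FDR = 0.0104). Apcs, the pentraxin serum amyloid P, fell by 0.74 (FDR = 0.00151), and Fcna, Colec10 and Cpn1 fell by 0.25 to 0.31. The C1q genes, which macrophages make, had 0.06, 0.11 and 0.08 and did not pass.

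Of 22 tested genes of the acute-phase list 5 fell and 3 rose. The rises were those of Orm3 (2.77), Lcn2 (1.20) and Orm2 (1.17). The Orm genes are near-identical copies, and reads that mapped to several of them were left out of the counts. Control medians of the 3 genes that rose were low, at 2.14 CPM for Orm3, 11.0 for Lcn2 and 5.71 for Orm2. Orm1, at a control median of 661 CPM, had 0.13 and did not pass (edgeR FDR = 0.503). Itih3, Itih4, Cp and Steap4 fell, as did Apcs, which both lists hold. Hp had -0.02, Saa1 0.57 and Saa2 0.82, all without a call. Of 20 liver transcription factor genes 1 rose, Cebpb by 0.60 (edgeR FDR = 0.0180), and 1 fell, Foxa3 by 0.68 (FDR = 0.0150), whereas Hnf4a (-0.15), Cebpa (-0.10) and Stat3 (-0.02) did not pass.

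None of the 16 interferon response genes passed in the edgeR fit, with DESeq2 or with limma-voom, and 0 had an unadjusted p under 0.05. Of 20 secretory pathway genes 2 rose, P4hb and Dnajb9, and 0 fell.

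Markers of the cell types in liver stand beside these values. Of the 10 hepatocyte markers 3 fell, Alb by 0.40, Ttr by 0.49 and Trf by 0.58. The sum of all 10 lay at 165741 to 187439 CPM in control mice and at 126667 to 141640 with BIBB-515, without overlap. Most of this sum was Alb, with medians of 118448 CPM in control mice and 92631 with BIBB-515, so it mainly restates Alb. The other 7 markers did not pass. Among them Ass1 was near 1 CPM in both groups, and whether the counting lowers this level was not tested. None of 10 Kupffer cell markers (404.9 to 679 CPM against 405 to 711), 10 sinusoidal endothelial markers (348 to 474 against 317 to 428) and 7 tested bile duct markers passed in the edgeR fit. Of the Kupffer and endothelial markers 0 had an unadjusted p under 0.05 and 0 passed with DESeq2 or limma-voom, and of the bile duct markers 1 had such a p and 1 passed with DESeq2. Of 10 stellate cell markers 2 fell, Lrat by 0.81 and Dcn by 0.27.

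Platelet markers were low, summing to 24.0 to 26.3 CPM in control mice and 19.2 to 25.4 with BIBB-515, with Gp6 at 0 in every mouse and Itgb3 the 1 of 5 tested to fall. Of the red cell markers 4 (Hba-a1, Hba-a2, Hbb-bs and Hbb-bt) were at 0 in every mouse. Reads that mapped to several places were left out, so these zeros do not show that blood was absent. Alas2, the 1 red cell marker tested, had medians of 12.2 CPM in control mice and 11.0 with BIBB-515. The fat list had Car3 higher by 1.16, while its defining markers Adipoq and Lep had at most 0.0405 CPM in any mouse. The part of the hepatocyte markers' change in the values of the members was not tested.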

How the data were processed

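RNA-seq of liver from 12 female mice, 6 per diet, was analysed. The authors deposited raw counts for each gene and mouse. Per the file headers, featureCounts 1.6.3 counted reads against UCSC gene models of mm10, ignoring strand and leaving out reads that mapped to several places or touched several genes. The submitters' processing notes also name STAR 2.5.3a. Tables of counts per exon were used for the exon ratios, tables with primary alignments as an alternative, and tables per transcript were not used. The library preparation for sequencing is not given in the sources used here. The authors' tables hold no comparisons.

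The filter kept 12481 of 24062 genes, those reaching 1 CPM in 2 or more of the 12 mice. TMM factors were computed on these, and diet was tested by edgeR 4.0.16 (quasi-likelihood, R 4.3.3) without covariates, adjusting p-values after Benjamini and Hochberg over every gene kept. The common biological coefficient of variation was 0.143. On simulated counts with 200 of 12368 genes changed 1.5-, 2-, 3- or 4-fold, the test recovered 95.5%, and 84% of those changed 1.5-fold. The 1.5- and 3-fold changes were all rises and the 2- and 4-fold changes all falls, so no 1.5-fold fall was simulated. Smaller changes, such as those of most members that passed, were not simulated. Single ratios were compared by exact permutation of the diets over the mice. Replicates are separate mice per the labels, which give no batch. All 39 members may be named, in full those past an FDR of 0.05 and the 5 next largest, and of other lists at most 8 genes past it plus defining markers. Some listed genes, counted with the rest, and 1 motif are not reported here. Further genes of those lists and the exon and neighbor comparisons were chosen after their values were seen. Members and lists were chosen with earlier results of these data known. Promoter sequences are RefSeq's (GRCm38.p6), and shared words were counted in GENCODE M21 transcripts.

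The alternatives were RLE, upper-quartile and no composition scaling, DESeq2 1.42.0, limma-voom 3.58.1, 2 other filters, the primary tables, 1 surrogate variable (sva 3.50.0) and leaving out each mouse.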

Additional observations from a re-analysis of the deposited data

Results flagged for a closer look

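Of 80 groups of 6 mice examined, 3 had 1 mouse far from the other 5 by Dixon's criterion, where chance gives about 4. Pros1 was highest in control mouse 2, at 67.4 CPM with the next mouse at 57.5, a gap of 0.627 of the group's range. Cpb2 was lowest in control mouse 2, at 302 CPM with the next at 334, a gap of 0.787 of the range. C1s1 was highest among the BIBB-515 mice in mouse 8, at 507 CPM with the next at 481, a gap of 0.644 of the range. Without control mouse 2 the fold change of C1s1 was -0.21 (edgeR FDR = 0.0384), and without BIBB-515 mouse 8 it was -0.23 (FDR = 0.0358).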

How the results depend on the processing

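No paired analysis was possible because the groups share only replicate number 6. F7, F9, F11, Vtn, C2, C9, Cfi and C4bp passed an FDR of 0.05 in all 9 other fits on all mice and in all 12 fits with a mouse left out, and Hrg in 9 and 10. Fgb, C1s1 and Hc passed in 7 of the 9. Fgb was lost with 1 surrogate variable and without a filter, and C1s1 and Hc with library totals alone and without a filter. None of the 17 members given in full changed direction, but F13b, Pros1 and C1ra, all with fold changes near 0, did in 1, 2 and 3 of these fits. Fgg, not called, passed in 4 of the 9 (upper-quartile scaling, the filter on 6 mice, limma-voom and DESeq2). C8b, not called either, passed in 1 of the 9 (DESeq2). The coagulation members that fell numbered 8 with DESeq2 (4 to 6 with a mouse left out) against 5, and those that rose 0 to 1. The complement members that fell numbered 3 with library totals alone and 3 without a filter (3 to 7 with a mouse left out), and those that rose 1 in every fit. With DESeq2, 8 complement members passed in either direction, where 5 fell and 1 rose in the main fit. The median of the coagulation members was -0.082 with library totals alone, between -0.17 and -0.12 with a mouse left out, and that of the complement members between -0.22 and -0.17. The genes called numbered 1705, of which 52.6% were higher, and 1986 with library totals alone, of which 75.3% were higher; DESeq2 called 2244, and the fits with a mouse left out 1199 to 1865. The ratios of Cfb/C2, C8b/C8a, Hrg/Kng2, F11/Klkb1 and C1ra/C1s1 kept an exact permutation p below 0.05 when any 1 mouse was left out, an alternative added after the data were seen. The causes of these shifts were not tested. Depth limits C6 most, and counts of genes with near copies (C1ra, C1s1, C4b, Kng1, Kng2) may be incomplete.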
